A study of Mus musculus with 44 samples.

Results

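The contacts described here are those that the α-globin promoters made far along their own chromosome. They were taken as every DpnII restriction fragment of chromosome 11 whose middle lies below position 31190000 or above position 33190000 (mouse build mm9), so that a window of 1 Mb to each side of position 32190000, around the promoters, was left out. The 96551 such fragments, of 593979 listed in the table of the α-globin viewpoint, were summed in 118 bins of 1 Mb, of 2583 in the whole genome. Of these bins, 116 were whole and the pair next to the window was cut by its borders. They reach 29.2 Mb towards lower and 89.7 Mb towards higher coordinates.

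All 14 libraries of the formaldehyde series came from primary Ter-119+ erythroid cells, sorted from spleens of female C57BL/6 mice made anaemic with phenylhydrazine. Aliquots were fixed with 0.5%, 1%, 2%, 3%, 4% or 5% formaldehyde, 1 aliquot per concentration, and each gave 2 technical duplicates, which makes 12 fixed libraries. The 2 libraries of 0% formaldehyde came from unfixed cells that were also Dounce homogenized in the water of the digestion without the centrifugation that follows lysis, so that fixation and this handling cannot be told apart. Capture-C counted, from the pooled Hba-a1 and Hba-a2 promoters, the unique interactions with each restriction fragment, and totals ran from 57467 (3%, duplicate 1) to 168633 (2%, duplicate 1). Since duplicates share an aliquot, p-values over libraries measure spread that may be technical only.

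In Capture-C, chromatin is crosslinked, cut with a restriction enzyme and religated, so that fragments that lay close in the nucleus become joined, and the joints of a chosen promoter are enriched and sequenced. A promoter meets sequences of its own chromosome more often than those of other chromosomes, and within a chromosome the contact frequency falls with distance, since both lie on 1 polymer. On the scale of megabases, active and inactive stretches of chromatin also tend to meet their own kind, which gives a profile of peaks and troughs far beyond the reach of enhancers. Joints made between molecules in solution carry no such information, and unfixed material was taken here as a baseline for them. It need not hold such joints alone. The α-globin genes are highly expressed in erythroid cells, where they encode the α chains of haemoglobin, and their enhancers lie inside the window that was left out. The question of the series was whether interaction profiles depend on the degree of crosslinking.

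Duplicates differed at the lowest concentrations. At 1% formaldehyde the window around the promoters held 20.2% of all interactions in duplicate 1 and 35.2% in duplicate 2, and at 0.5% it held 15.6% and 11.6%. Shares, densities and slopes at these concentrations are given below for each duplicate, and leaving out each of the 14 libraries in turn kept the sign of the differences in share, density, slope and side ratio between fixed and unfixed material given below.

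Unfixed cells placed 5.52% and 5.39% of all α-globin interactions in the distant bins. Among the fixed libraries this share was 14.4% at the lowest (0.5%, duplicate 2), 20.6% at the median and 23.2% at the highest (1%, duplicate 2), and no fixed library overlapped the unfixed ones. At 0.5% the duplicates had 16.6% and 14.4%, at 1% they had 19.1% and 23.2%, and at 2% they had 23.0% and 22.9%. At 3% they had 20.6% and 20.9%, at 4% 20.6% and 20.6%, and at 5% 20.5% and 19.98%. The mean share thus stood highest at 2% and lower at 3% to 5%. It went from 15.5% to 22.9% over 0.5% to 2% and from 20.8% to 20.2% over 3% to 5%. The step from 2% to 3% lies where 2 sets of labels, described below, meet, and concentration and label set cannot be told apart there. The 95% Wilson interval, which covers counting error only, was 20.3% to 21.0% in the library with fewest interactions and 5.39% to 5.64% in the first unfixed one. Over the means of the 7 concentrations, the 6 fixed ones exceeded the unfixed one by 14.7 percentage points (exact permutation test, two-sided, p = 0.143, the smallest this design can give). Among the 6 fixed concentrations the share did not show a trend that passed the test (Pearson r = 0.35, exact p = 0.56, Spearman rho = -0.09, exact p = 0.919).

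The denominator decides the direction of this comparison. Of the interactions on chromosome 11 alone, a mean of 95.4% were distant in unfixed cells against 26.7% to 55.4% in the fixed libraries, because the window around the promoters went from 0.195% and 0.334% of all interactions in unfixed cells to 54.7% in a library of 5% formaldehyde. Interactions with other chromosomes, in trans, took 94.3% of all interactions without fixation and 25.3% to 74.0% with it.

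**Figure D1:**
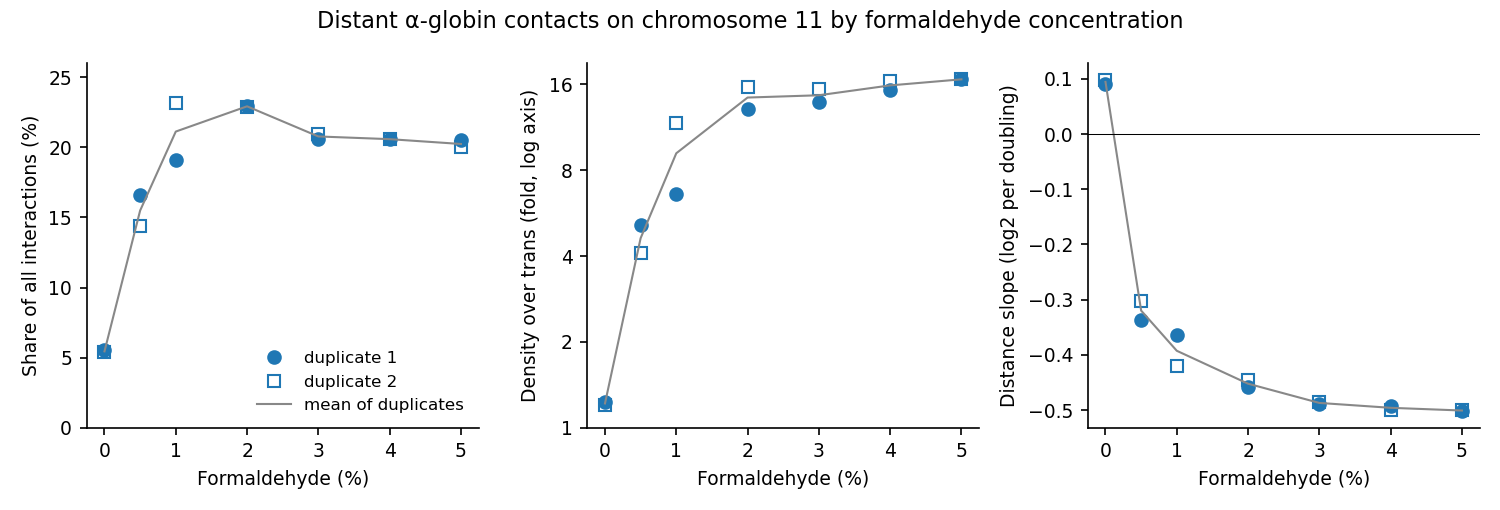
Distant α-globin contacts on chromosome 11 in each of the 14 libraries against formaldehyde (%), as the share of all interactions (left), the density per 1 Mb over trans (middle, log axis) and the distance slope (right); filled circles and open squares are the technical duplicates and the line joins their means. The share rises from about 5.45% to a highest mean of 22.9% at 2%, whereas density and slope go on changing up to 5%. Above 2% the distant share is lower, and the density rises as the trans share falls.

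Set against the trans bins of the same library, the distant bins rose further. The density of interactions was taken as the mean per 1 Mb over the distant bins divided by the mean over the 2464 trans bins. It was 1.23 and 1.203 in the unfixed duplicates, 5.14 and 4.10 at 0.5%, 6.61 and 11.7 at 1%, and 16.7 and 16.6 at 5%. On the log2 scale the fixed concentrations lay 3.23 above the unfixed one (exact permutation p = 0.143, the smallest possible), and 2.77 above it within the libraries of 0% to 2%. The labels fall into 2 sets by form, since those of 3% to 5% carry a characteristic, the molecule subtype, that those of 0% to 2% lack, and no label says what this reflects. Among the 6 fixed concentrations the mean log2 density rose at every step, from 2.20 at 0.5% to 4.06 at 5% (r = 0.84, exact permutation p = 0.0222, adjusted p = 0.0296 over 4 measures; rho = 1, exact p = 0.00278, adjusted p = 0.0037). Without the lowest and the highest concentration r was 0.86. From 2% to 5% the mean distant share of all interactions went from 22.9% to 20.2% and the mean trans share from 33.9% to 25.6%. Above 2% the rise in density thus came from fewer trans interactions, not from a larger distant share. The duplicates of 1% were 0.83 apart on this scale, which is more than the change from 2% to 5%, so that the order of neighbouring concentrations above 1% is within the spread of duplicates. Within the label sets the mean rose from 2.20 to 3.84 over 0.5% to 2% and from 3.87 to 4.06 over 3% to 5%.

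A density slightly above 1 in unfixed cells was not particular to the α-globin promoters. In the same unfixed libraries, the β-globin promoters on chromosome 7 met the same stretches of chromosome 11, in trans, 1.18 and 1.15 times as often as their other trans bins, and the Slc25a37 promoter on chromosome 14, which belongs to a mitochondrial iron importer, 1.19 and 1.13 times as often. With 5% formaldehyde these trans densities of chromosome 11 were 1.44 and 1.44 from β-globin and 1.62 and 1.55 from Slc25a37, against 16.7 and 16.6 in cis from α-globin.

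With fixation the distant contacts took on a dependence on distance that unfixed material lacked. The distance slope is the log2 change in interactions for each doubling of the distance from the viewpoint, from a Poisson regression over the whole bins. It was 0.09 and 0.10 in the unfixed duplicates, so that counts were slightly higher far away, and negative in 12 of 12 fixed libraries. At 0.5% it was -0.34 and -0.30, at 1% -0.36 and -0.42, at 2% -0.46 and -0.45, and at 5% -0.50 and -0.50. The fixed concentrations differed from the unfixed one by -0.54 (exact permutation p = 0.143, the smallest possible). Within fixed material the slope became steeper at every step (r = -0.90, exact permutation p = 0.00972, adjusted p = 0.0194; rho = -1, exact p = 0.00278, adjusted p = 0.0037), and r was -0.95 without 0.5% and 5%. The duplicates differed by at most 0.06, against a range of means from -0.32 to -0.50. Within the label sets the mean slope went from -0.32 to -0.45 over 0.5% to 2% and from -0.49 to -0.50 over 3% to 5%.

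The sign of the slope depended on the range of distances. Over 1 to 28 Mb, the range present on both sides, the unfixed duplicates had 0.12 and 0.07. At 0.5% the duplicates had 0.03 and -0.03, at 1% 0.04 and -0.05, and at 2% -0.07 and -0.09, so that 2 of 12 fixed libraries were positive. At 3% they had -0.32 and -0.30, at 4% -0.33 and -0.31, and at 5% -0.34 and -0.31. The largest step over this range thus lay between 2% and 3%, where the label sets meet, and concentration and label set cannot be told apart there.

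The fall with distance was not even. Between 1 and 2 Mb from the viewpoint the density per Mb was 13.5 to 93.3 times the trans mean in the fixed libraries, with a median of 74.9. It fell to a median of 24.8 at 2 to 5 Mb and to 14.1 at 5 to 10 Mb. From there it rose again, to 17.0 at 10 to 20 Mb and 23.1 at 20 to 29 Mb, before falling to 14.7 at 29 to 40 Mb, 9.85 at 40 to 60 Mb and 4.34 beyond 60 Mb. The same second maximum stood at each of the 6 fixed concentrations. At 0.5% the duplicates ran from 3.59 to 4.64 at 5 to 10 Mb and from 6.13 to 8.61 at 20 to 29 Mb. At 5% the means were 17.1 and 25.2. In the unfixed libraries all windows lay between 0.915 and 1.39 times the trans mean, and the window with the highest mean, 1.33, was that of 29 to 40 Mb.

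**Figure D2:**
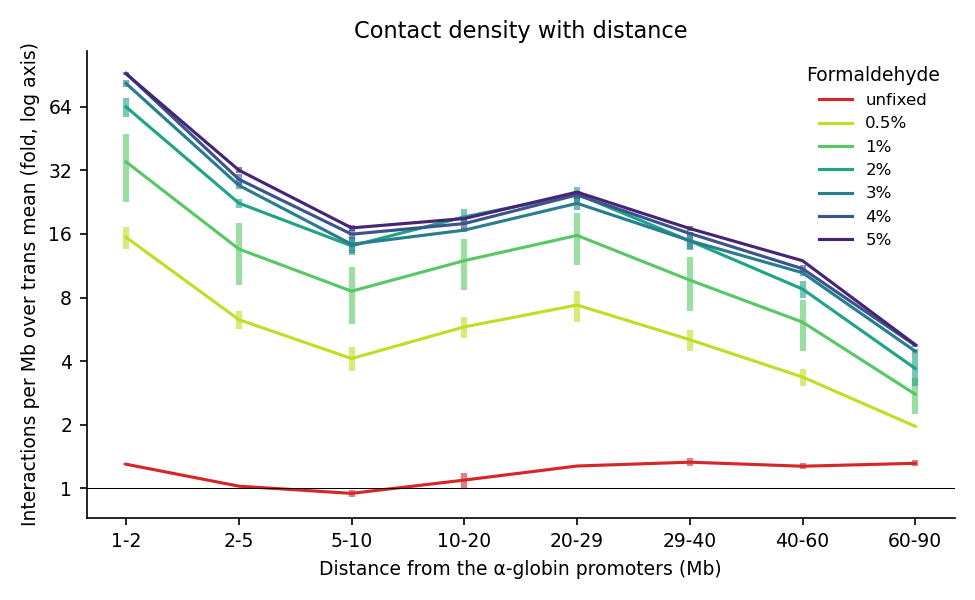
Interactions per Mb in 8 windows of distance from the α-globin promoters, divided by the mean of the trans bins of the same library (log axis), for each formaldehyde concentration; lines join the means of duplicates and thick bars span them. Every fixed concentration dips at 5 to 10 Mb and a second maximum at 20 to 29 Mb, and the unfixed libraries stay between 0.915 and 1.39.

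Even the farthest bins stood above trans in fixed cells. Beyond 60 Mb the density was 1.96 to 4.82 times the trans mean in the fixed libraries, against 1.27 and 1.36 in the unfixed ones. On the scale of all interactions the same window did not separate the groups, with 48.6 and 52.0 interactions per Mb and 100000 in the unfixed libraries and 45.7 to 59.2 in the fixed ones. Of the 116 whole bins, 113 to 116 held more interactions than the trans mean in each fixed library, compared with 89 and 87 in the unfixed ones. For comparison, 31.2% to 44.8% of the trans bins exceeded their own mean in the fixed libraries and 49.9% and 49.2% in the unfixed ones. Seen in trans from β-globin and Slc25a37, chromosome 11 stood at 1.15 to 1.63 times their other trans bins in the fixed libraries. Some far bins were within that range, with averages of 1.24, 1.31 and 1.51 at 111, 112 and 92 Mb.

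The 2 arms of the profile were compared over 1 to 28 Mb, the range that exists on both sides. The side ratio, log2 of interactions at higher over lower coordinates, was 0.15 and 0.15 in unfixed cells and 0.11 to 0.29 in the fixed libraries, so that the groups overlapped (difference 0.04, exact permutation p = 0.571). Among the fixed concentrations it fell at every step, from 0.26 at 0.5% to 0.13 at 5% (r = -0.99, exact permutation p = 0.00278, adjusted p = 0.0111; r = -0.998 without 0.5% and 5%). Duplicates of 1 concentration differed by up to 0.10, however, which is most of that range. Within the label sets the mean fell from 0.26 to 0.21 over 0.5% to 2% and from 0.18 to 0.13 over 3% to 5%. Nearer to the promoters the sides did part. Within 1 to 10 Mb the ratio was 0.06 and -0.11 in unfixed cells and -0.70 to -1.20 in the fixed libraries, so that the side of lower coordinates held the larger part in 12 of 12 fixed libraries (difference between means -0.93, exact permutation p = 0.143, the smallest possible).

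Single bins of fixed cells varied far more than those of unfixed cells. Summed over the 12 fixed libraries, a whole bin held between 243 and 11862 interactions (median 1208.5), a 48.8-fold range. Summed over the unfixed duplicates, it held 66 to 163 (median 114.5), a 2.47-fold range. After the distance fit was taken out and counting error subtracted, the relative SD between bins was 0.17 and 0.16 in the unfixed libraries, 0.76 and 0.62 at 0.5%, 0.83 and 0.89 at 1%, and 0.87 to 0.97 in the libraries of 2% to 5%. The contrast between bins was thus nearly as large at 1% as at any higher concentration.

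The 5 bins with the highest mean in fixed cells were not simply the nearest ones. The first was chr11:30000001-31000000, 1.69 Mb from the viewpoint on the side of lower coordinates. It held 43.5 and 52.1 interactions per 100000 in the unfixed libraries and between 474.8 and 1373.1 (median 1181.3) in the fixed ones. The second lay 26.3 Mb away on the other side, at chr11:58000001-59000000, with 53.6 and 60.9 against 375.4 to 924.5 (median 769.1). The third, chr11:4000001-5000000, was 27.7 Mb away near the start of the mapped chromosome, with 47.3 and 50.3 against 329.9 to 795.8 (median 649.6). They were followed by chr11:29000001-30000000, with 32.7 and 35.7 against 314.1 to 753.7, and chr11:53000001-54000000, with 57.4 and 62.7 against 346.9 to 749.6. In each of the 5 bins every fixed library exceeded both unfixed ones, and the lowest fixed value came from a library of 0.5%. Since these bins were chosen for their mean in the fixed libraries, this contrast follows in part from the choice.

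The bins at 58, 4 and 53 Mb, far from the promoters, stood most above the distance fit of the summed fixed libraries. In that order they exceeded the fit by 2.23, 2.07 and 1.82 on the log2 scale, and in the unfixed libraries by 0.30, 0.07 and 0.40. They were chosen for their excess in the fixed libraries, so that a smaller unfixed excess follows in part from the choice. The largest deficits were -2.42 at chr11:91000001-92000000, -2.25 at chr11:92000001-93000000 and -2.22 at chr11:111000001-112000000. In the bin at 91 Mb the unfixed libraries held 33.4 and 41.5 interactions per 100000, and the fixed ones between 10.9 and 36.6 (median 19.1), so that the groups overlapped. This bin was at 1.3 times the trans mean on average over the fixed libraries, compared with 81.0 times for the bin at 30 Mb.

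No single fragment made a bin. The fragment with most interactions held at most 1.67% of those of its bin in the fixed libraries, and 40.9% of the listed distant fragments held 1 interaction in all 14 libraries together. The highest fragment, chr11:30901480-30902967, had 91 interactions in the fixed libraries and 0 in the unfixed ones, where the largest count of any distant fragment was 6. The next 2 lay within the same few kilobases. A second group stood 26.3 Mb away, where chr11:58453858-58455103 had 83 and 0.

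Bins above and below the fit came in stretches. Of the 116 whole bins, 40 stood above the fit of the fixed libraries, in 17 stretches of up to 7 bins, and 76 below it, in 17 stretches of up to 19 bins. The longest stretch above it was chr11:48000001-55000000, with 33324 interactions in the fixed libraries and 850 in the unfixed ones. The longest below it was chr11:103000001-122000000, with 9018 and 2281. On the side next to the window, chr11:34000001-44000000 was a stretch of 10 bins below the fit. Neighbouring bins correlated with r = 0.49 to 0.58 in the fixed libraries and 0.29 and 0.27 in the unfixed ones (114 pairs of bins, given as a description since neighbours share sequence and library).

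**Figure D3:**
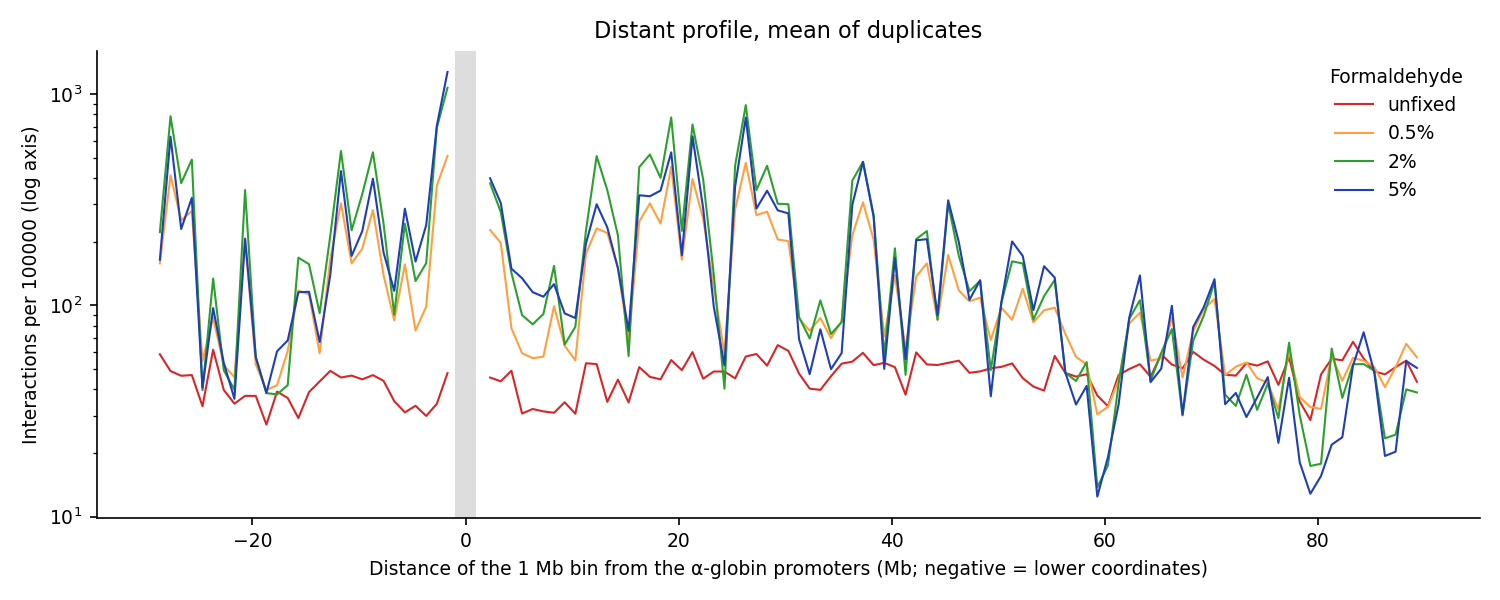
Interactions per 100000 (log axis) in each whole 1 Mb bin against its distance from the α-globin promoters (Mb), as the mean of the duplicates of 0%, 0.5%, 2% and 5% formaldehyde; the grey band is the window left out. Peaks and troughs stand at the same distances at 0.5%, 2% and 5%, with the highest at 1.69 Mb and 26.3 Mb, and the unfixed line is nearly flat.

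The edgeR quasi-likelihood test put single bins of the whole genome to the same comparison, with all interactions of a library as its size. Of the 118 distant bins, 77 rose and 4 fell in fixed against unfixed libraries at an adjusted p under 0.05, and 84 had an unadjusted p under 0.05. Over all 2542 bins tested, 3.62% rose and 52.2% fell (55.8% in either direction), and 77 of the 92 bins that rose were distant bins of chromosome 11. The median log2 change was 1.35 over the distant bins (quartiles 0.21 and 2.36) and -1.41 over all bins. All 23 distant bins within 12 Mb of the viewpoint rose, and of the 30 bins beyond 60 Mb 5 rose and 4 fell. The call of a rise thus faded with distance. Of the 37 bins that passed in neither direction, 6 lay on the side of lower coordinates, at 16.7 to 24.7 Mb, and 31 on the other side, at 24.3 Mb or more.

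The largest rises were in the 3 nearest bins on the side of lower coordinates. In the cut bin chr11:31000001-31189999, which covers 0.19 Mb, the unfixed libraries had 7.76 and 9.71 interactions per 100000, from counts of 10 and 11, and the fixed ones 122.7 to 295.3, a log2 change of 4.54 ± 0.34 (SE; edgeR adjusted p = 1.05e-35). The bins at 30 and 29 Mb followed, with 4.45 ± 0.40 and 4.17 ± 0.36. The nearest bin on the other side, chr11:33190001-34000000, 1.405 Mb away, was not among them. Its mean per 100000 was 41.3 in the unfixed and 433.4 in the fixed libraries. Bins 27.7 and 26.3 Mb away, at 4 and 58 Mb, rose by 3.71 ± 0.35 and 3.68 ± 0.35. Of the 4 bins that fell, the 3 largest changes were -1.10 ± 0.42 (edgeR adjusted p = 0.0267) at chr11:112000001-113000000, -0.82 ± 0.37 (adjusted p = 0.0487) at chr11:118000001-119000000 and -0.76 ± 0.34 (adjusted p = 0.0468) at chr11:119000001-120000000. These falls did not hold widely. With TMM factors over all bins, which set the median bin near 0, 110 distant bins rose and 0 fell (11.1% and 1.18% of all bins).

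The number of rising distant bins moved little when libraries were left out or summed, and the number of falling bins over the whole genome moved by far more. Without unfixed duplicate 1, 63 distant bins rose and 0 fell, and of all bins 2.68% rose and 0.591% fell. Without unfixed duplicate 2, 66 rose and 0 fell, against 2.64% and 0.157% of all bins. With the technical duplicates summed to 1 library per concentration, 66 rose and 0 fell (2.65% and 0.117% of all bins), and within the libraries of 0% to 2%, 77 rose and 0 fell (3.71% and 8.05%). The calls of a fall in 52.2% of all bins thus rest on the duplicates being counted as replicates and on both unfixed libraries. The median log2 change over all bins was -1.43 with duplicates summed, and -1.40 and -1.39 without unfixed duplicate 1 or 2. It was -0.98 within 0% to 2% and -1.41 in the fit of 14 libraries, so that the calls moved more than the median.

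With the distant interactions of a library as its size, the test compares the shape of the profile alone. Here 31 distant bins rose and 61 fell, against 1.22% and 97.8% of all bins (99% in either direction), and 26 passed in neither direction. The rising bins lay up to 45.3 Mb away (median 18.3 Mb) and the falling ones at a median of 59.3 Mb, and all 30 bins beyond 60 Mb fell. The largest rises were again the bins at 31, 30 and 29 Mb, by 2.65, 2.54 and 2.28 (edgeR adjusted p = 4.35e-16, 7.93e-27 and 3.16e-26). The largest falls were -2.93, -2.69 and -2.64, at 112, 91 and 118 Mb (edgeR adjusted p = 9.3e-08, 1.62e-05 and 5.72e-08).

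Within the 12 fixed libraries, the test took the change per 1% formaldehyde, with all interactions as the size. It called 24 distant bins as rising and 23 as falling, against 0.947% and 86.1% (87% in either direction) of the 2534 bins tested, and all 24 rising bins of the genome were distant bins of chromosome 11. The median was -0.01 over the distant bins and -0.39 over all bins. Of the 24, 16 lay within 12 Mb of the viewpoint, whereas 12 of the 23 falling bins lay beyond 60 Mb and none within 12 Mb. The largest rise was at chr11:28000001-29000000, 3.69 Mb away, with 97.6 to 259.2 interactions per 100000 in the fixed libraries and 26.4 and 33.5 in the unfixed ones (0.28 ± 0.05 per 1%, edgeR adjusted p = 2.67e-06). The bin chr11:37000001-38000000, 5.31 Mb away on the other side, rose by 0.27 ± 0.05 (adjusted p = 4.5e-06) and the bin at 30 Mb by 0.26 ± 0.06 (adjusted p = 0.000367).

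The first pair of rising bins lay in troughs of the profile, 1.18 and 1.63 below the distance fit, and the third, at 30 Mb, 0.92 above it. The median excess was -0.46 over the whole bins among the 24 rising ones and -1.26 over the 23 falling ones. Of the 116 whole bins, 76 lay below the fit, so that a negative median does not set the rising bins apart. The bins with the highest excess, at 58, 4 and 53 Mb, changed by 0.08, 0.04 and 0.06 per 1% and were not called (edgeR adjusted p = 0.183, 0.491 and 0.325). The largest falls were -0.38 ± 0.06 at chr11:113000001-114000000 (adjusted p = 7.18e-07), -0.36 ± 0.09 at 112 Mb (adjusted p = 0.000304) and -0.33 ± 0.09 at 111 Mb (adjusted p = 0.00116). With TMM factors, relative to a genome in which most bins fall, 64 distant bins rose and 0 fell (6.43% and 3.16% of all bins), and the bins at 113 and 112 Mb were no longer called (-0.06 and -0.01). With the distant interactions as the size, 22 distant bins rose and 42 fell along formaldehyde (0.868% and 89.3% of all bins, 90.1% in either direction), a fit chosen after the values were seen.

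The calls per 1% did not hold across the label sets. Within 0.5% to 2%, 34 distant bins rose and 10 fell (1.53% and 63.2% of all bins). Within 3% to 5%, edgeR called 0 in either direction (0% of the 1666 bins tested), and 7 distant bins had an unadjusted p under 0.05. With the label set as a block, 1 distant bin rose and 0 fell (0.0395% and 6.75% of all bins), and 9 had an unadjusted p under 0.05. That bin, chr11:39000001-40000000, is named for being the single one called, at 0.29 per 1% (edgeR adjusted p = 0.0494). The bins at 30, 28 and 37 Mb rose by 0.66, 0.45 and 0.35 within 0.5% to 2% and changed by -0.01, 0.01 and -0.05 within 3% to 5%, where they were not called. The median change over all bins was -0.46 with the block, against -0.39 without it, and -0.10 within 3% to 5%. The block follows concentration and each label set holds fewer libraries, so that lost calls may reflect lost power. These fits were added after the values were seen.

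The counts of calls moved with the scaling and the bin width. DESeq2 with its own size factors called 111 distant bins as rising and 0 as falling between fixed and unfixed libraries (12.4% and 1.06% of all bins), a fit that takes no library size, and 87 and 0 along formaldehyde (7.46% and 3.04%). TMM factors with the distant interactions as the size gave 106 and 0 (10.2% and 2.01%). With bins of 500 kb, 135 of 235 distant bins rose and 0 fell per all interactions (3.34% and 22.7%). Per distant interactions 55 rose and 129 fell (1.11% and 97.6%), and along formaldehyde 37 rose and 31 fell (0.948% and 59.4%). With duplicates summed, 30 rose and 57 fell per distant interactions (1.17% and 97.1%), and 17 rose and 19 fell along formaldehyde (0.665% and 82.3%).

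**Figure D4:**
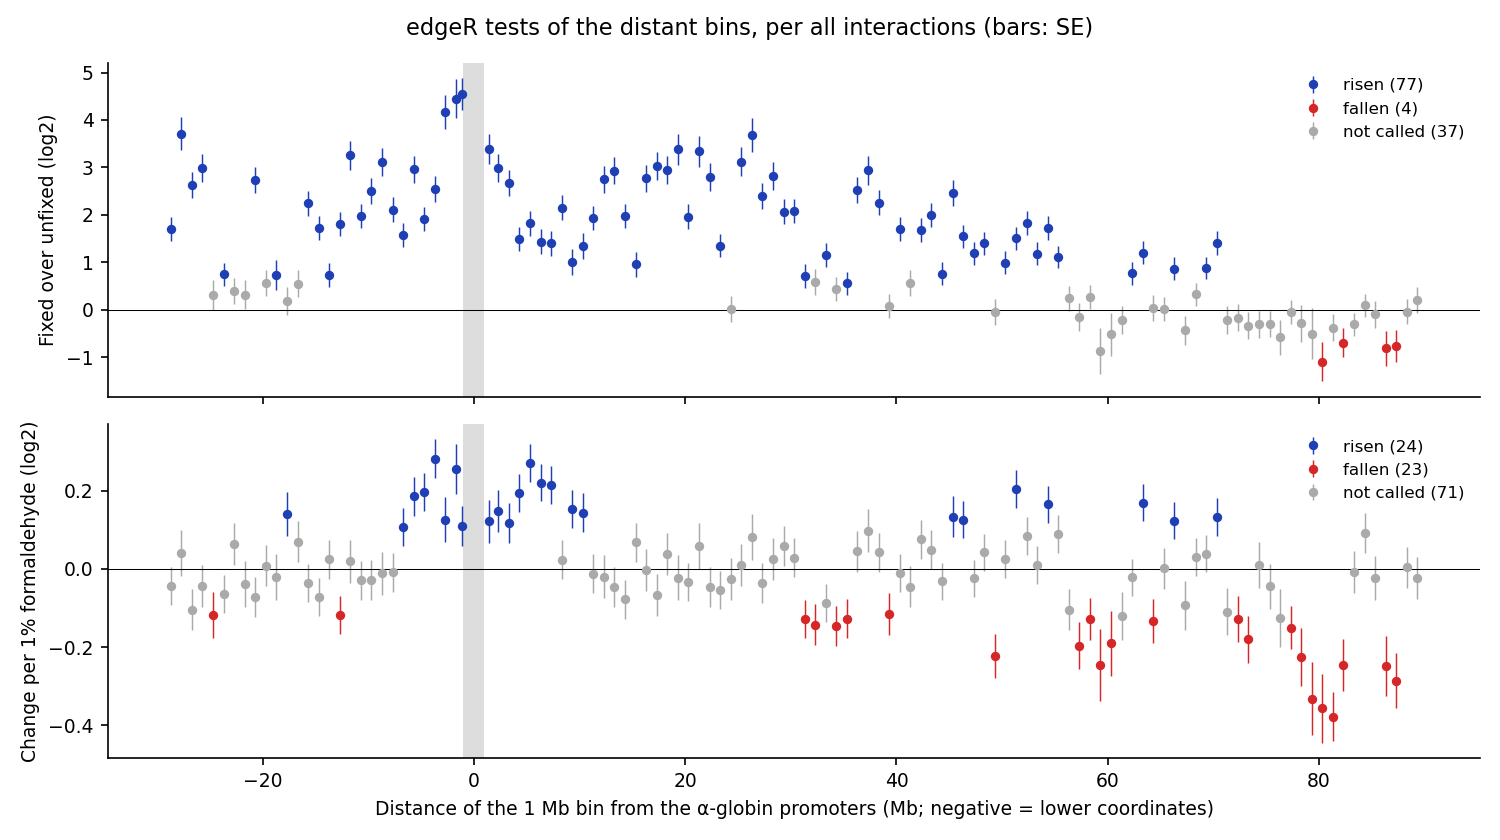
log2 change of each of the 118 distant bins against its distance from the α-globin promoters (Mb), for fixed over unfixed libraries (top) and per 1% formaldehyde in the fixed libraries (bottom); bars are SE, and colours mark bins that rose or fell at an adjusted p under 0.05. The top panel has 77 risen and 4 fallen bins, and in the bottom panel 16 of the 24 risen bins lie within 12 Mb and the 23 fallen ones farther away.

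Despite these changes, the order of the bins was shared across concentrations. The excess over the distance fit, computed for each library, correlated between duplicates with r = 0.95 to 0.98 over the 116 whole bins at each fixed concentration, and with r = 0.35 between the unfixed duplicates, where few counts separate the bins. Against the summed libraries of 5%, r was 0.93 for 0.5%, 0.93 for 1%, 0.95 for 2%, 0.98 for 3% and 0.99 for 4%, and 0.59 for unfixed cells. These are descriptions over bins that share chromosome, sequence and capture, and depth differs between concentrations.

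Other libraries of the series gave a like profile. The 18 low-input libraries (LI-Capture-C and Tag-Capture-C from 50, 100 and 200 ng of 3C library) and 12 LI-Capture-C libraries made in whole from 10000 to 100000 cells, fixed with 2% formaldehyde, were not used by the comparisons above. Of their interactions on chromosome 11, 35.9% to 41.5% and 40.2% to 48.6% were distant, and their distance slopes -0.51 to -0.39 and -0.47 to -0.22. Over the 116 bins the excess in the 12 fixed libraries correlated with that in the low-input libraries at r = 0.95 and with that in those made from cells at r = 0.96. The unfixed libraries correlated with the low-input ones at r = 0.54. By concentration r was 0.90 at 0.5%, 0.91 at 1%, 0.94 at 2%, and 0.95, 0.95 and 0.96 at 3%, 4% and 5%.

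**Figure D5:**
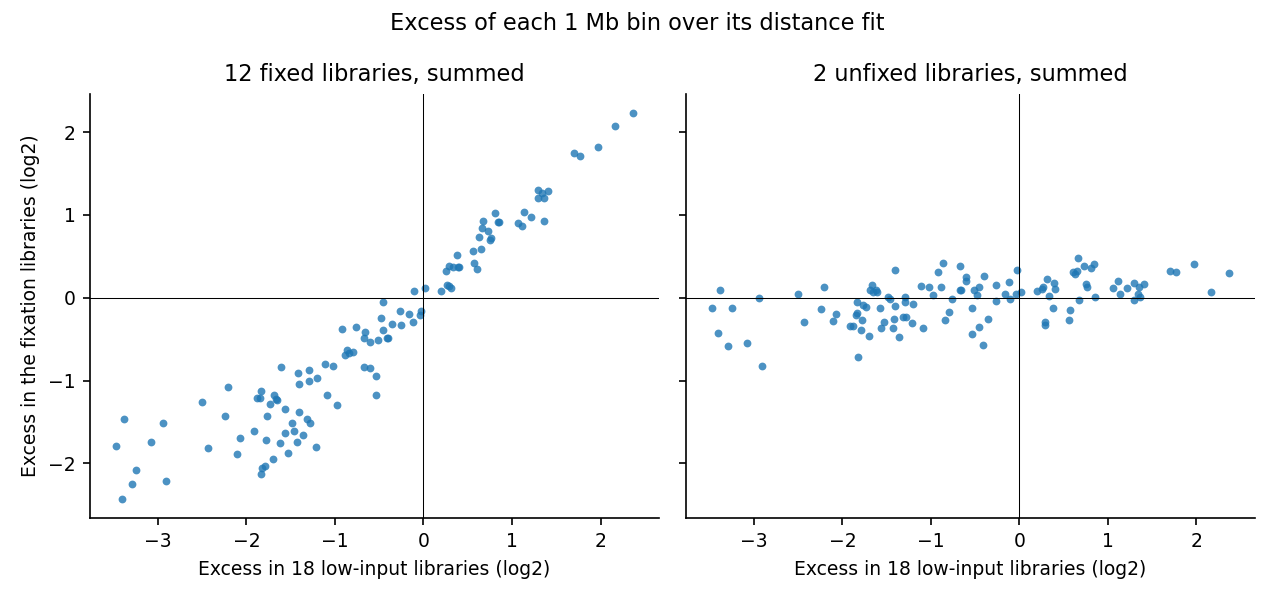
Excess of each whole 1 Mb bin over its distance fit (log2) in the 12 fixed libraries (left) and the 2 unfixed libraries (right) against that in the 18 low-input libraries; each point is 1 of 116 bins. The fixed points follow the low-input ones (r = 0.95), and the unfixed points stay within a narrow band (r = 0.54).

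The low-input libraries were then used to divide the bins, and the fixation libraries to read them. Since the low-input excess correlated with the fixed one at r = 0.95, this division restates that relation and is no separate test. The 29 bins with the highest excess in the low-input libraries and the 29 with the lowest had means of 68.4 and 56.5 interactions in unfixed duplicate 1 and 56.9 and 47.0 in duplicate 2, a ratio of 1.21 in both. In the fixed libraries the ratio was 4.54 at the lowest (0.5%, duplicate 2), 9.85 at the median and 12.1 at the highest (2%, duplicate 1), so that no fixed library overlapped the unfixed ones. The high bins stood at 7.83 to 36.0 times the trans mean in the fixed libraries and at 1.31 and 1.39 in the unfixed ones. The low bins stood at 1.72 to 3.74 times and at 1.08 and 1.15. These sets also differ in distance, with medians of 26.7 Mb for the high and 57.3 Mb for the low bins, and the ratio includes that difference. After the trans mean was subtracted from every bin, the ratio was 9.43 to 19.4 in the fixed libraries, whereas in the unfixed ones, 2.67 and 3.71, it rested on small differences from the trans mean.

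The other viewpoints of the same libraries, which meet chromosome 11 in trans, share part of the profile. Over the 116 bins and the fixed libraries, interactions per bin ranged from 101 to 727 (7.20-fold) from the β-globin promoters and from 26 to 307 (11.8-fold) from Slc25a37, against 2.52-fold and 2.92-fold without fixation. The β-globin and Slc25a37 profiles correlated with each other at r = 0.92, and with the α-globin excess at r = 0.44 and r = 0.64. In unfixed cells the α-globin counts correlated with those of β-globin at r = 0.64 and of Slc25a37 at r = 0.55. All these readouts share the libraries and the sequence of chromosome 11, and neither mappability nor the density of restriction sites was measured here.

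The distant contacts of the 3 viewpoints were compared on their own chromosomes, with distant taken the same way, over 1 Mb from the viewpoint. Paired by concentration, the log2 density over trans of α-globin was 0.17 above that of β-globin on average, higher in 7 of 7 concentrations (exact sign-flip permutation test, p = 0.0156, adjusted p = 0.0312 over 2 comparisons). The difference was 0.19 in the unfixed pair and 0.12 to 0.19 in the fixed ones, so that unfixed material already held it. Above Slc25a37 the α-globin density stood by 0.08, higher in 5 of 7 (exact permutation p = 0.0938, adjusted p = 0.0938), of which 0.42 came in the unfixed pair and -0.02 to 0.08 in the fixed ones. The available distances differ between the chromosomes, and the sign depended on the window. Between 1 and 20 Mb α-globin lay 0.40 below β-globin and 0.53 below Slc25a37, lower in 7 of 7 concentrations in both cases (adjusted p = 0.0156 by the exact permutation test, the smallest possible). Beyond 5 Mb it lay 0.29 and 0.21 above them. The unfixed pairs differed there by 0.21 and 0.47, and the fixed ones by 0.27 to 0.35 and 0.13 to 0.24.

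Over the same distances, 1 to 28 Mb on both sides, the mean slope of the 6 fixed concentrations was -0.17 from the α-globin promoters, with libraries from -0.34 to 0.04. It was -0.46 from β-globin and -0.75 from Slc25a37. The paired differences were 0.29 (0.21 to 0.39) and 0.58 (0.47 to 0.71), positive in 6 of 6 concentrations (exact sign-flip permutation p = 0.0312, the smallest possible, adjusted p = 0.0312). In the unfixed libraries the slopes over this range were 0.07 and 0.12 from α-globin, -0.05 and 0.00 from β-globin, and -0.24 and -0.23 from Slc25a37, in the same order. This comparison was chosen after the unequal distances had been seen.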

How the data were processed

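The authors trimmed and mapped reads (Trim Galore and Bowtie, build mm9, per the labels; versions are not given in the sources used here), removed read pairs with identical ends and counted unique interactions per DpnII fragment. For low-input libraries the paper describes a stricter filter that also removed reads with nearly identical ends. The counts were deposited as they stood, with no normalization. No gene annotation of mm9 was used. Counts were summed in 1 Mb bins in Python 3.11.15 (NumPy 2.4.6, pandas 2.3.3, SciPy 1.17.1, matplotlib 3.10.9). Bins of chromosomes 1 to 19 and X with a mean count of at least 5 were tested with edgeR 4.0.16 in R 4.3.3, without normalization factors, at a Benjamini-Hochberg adjusted p under 0.05. DESeq2 1.42.0 was an alternative. The scripts were tested on simulated counts with 200 bins changed. The fits found 156 of them per all interactions, 58 per distant interactions and 94 along formaldehyde, with 7, 2 and 6 false calls. Changes of the simulated size were thus often missed. The bins named are the 5 highest in fixed cells, the 3 largest excesses and deficits, and for each edgeR test the 3 called bins with the largest rise and fall. The bins and rules were chosen with earlier results of these data known, and trends within the fixed concentrations and within the 2 label sets, slopes over matched distances and the high and low sets of bins after the values were seen. Fragments of chromosome 11 agreed between the tables in start and end or did not overlap. In the low-input tables many fragments of other chromosomes overlapped unequal ones of the fixation tables, so that no trans position from them was used.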

Additional observations from a re-analysis of the deposited data

How the results depend on the processing

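Leaving out each library in turn gave differences between fixed and unfixed material of 14.4 to 15.1 percentage points in the distant share, 3.16 to 3.30 in log2 density, -0.54 to -0.53 in slope and 0.04 to 0.05 in the side ratio, and correlations over all 7 concentrations of 0.54 to 0.65 for the share, 0.76 to 0.83 for density, -0.75 to -0.72 for slope and -0.67 to -0.52 for the side ratio. It gave 63 to 83 called bins per all interactions, 83 to 93 per distant interactions and 39 to 49 along formaldehyde. Over all bins the falling share ran from 0.157% to 76.8%, 96.6% to 97.8% and 70.9% to 87.3% in these fits, and the rising share from 2.64% to 3.74%, 1.14% to 1.22% and 0.713% to 1.07%, and the lowest falling share was that without unfixed duplicate 2. It gave viewpoint differences of 0.15 to 0.18 and 0.07 to 0.10. Over all 7 concentrations, where the unfixed aliquot stands apart, Pearson's r was 0.60 for the share, 0.80 for density, -0.73 for slope and -0.62 for the side ratio (exact permutation, adjusted p = 0.144, 0.05, 0.05 and 0.144), and within the 6 fixed ones it was 0.84 for density, -0.90 for slope and -0.99 for the side ratio. Over the 7 concentrations the adjusted p of density and slope was thus not under 0.05. Slope did pass there with distances of 1 to 20 Mb (-0.93) and with least squares on windows (-0.81). Taking the share of cis interactions turned the difference to -59.1 and the correlation to -0.79, the side ratio turned to -0.93 within 10 Mb, and the viewpoint differences turned to -0.40 and -0.53 at 1 to 20 Mb and passed for Slc25a37 beyond 5 Mb (0.21). With 500 kb bins 135 of 235 distant bins were called per all interactions, 0 of them falling, and 184 per distant interactions.

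Scaling set the direction of the calls. TMM factors and DESeq2's own size factors moved the median of all bins from -1.41 to -0.06 and -0.10, and gave 110 and 111 rising and 0 falling distant bins per all interactions. TMM factors gave 106 rising per distant interactions, where DESeq2's own factors are the same fit as per all interactions, in place of 31 rising and 61 falling. Along formaldehyde, DESeq2's own factors called 87 rising and 0 falling. Under TMM and these factors the bins that had fallen per all interactions stood at 0.30 and 0.26 (112 Mb), 0.60 and 0.55 (118 Mb) and 0.64 and 0.59 (119 Mb), those that had fallen per distant interactions at 0.24 and 0.26 (112 Mb), 0.48 and 0.49 (91 Mb) and 0.55 and 0.55 (118 Mb), and the bin at 111 Mb along formaldehyde at 0.015 and 0.0089. The falls at 118 and 119 Mb per all interactions lost their call in 14 and 15 alternatives in all. Along formaldehyde, 44 distant bins were called within 0.5% to 2%, 0 within 3% to 5% and 1 with the label set as a block. The bins at 37, 30, 112 and 111 Mb turned to -0.053, -0.011, 0.20 and 0.027 within 3% to 5%, and that at 113 Mb to 0.069 within 0.5% to 2%. The cause was not tested. Duplicate numbers did not pair the libraries (median r of their deviations 0.00 over 21 pairs of concentrations, 1 above 0.1), and the replicate block gave 77 rising bins and 1 falling bin per all interactions (3.62% and 47.5% of all bins), 31 and 61 per distant interactions (1.22% and 97.8%) and 24 and 23 along formaldehyde (0.947% and 85.3%). A slope after subtraction of the trans mean was not run for unfixed libraries, whose bins lie around that mean. Depth limits single bins: a whole bin held 25 to 102 interactions in an unfixed library, and as few as 4 in a fixed one (3%, duplicate 1).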
